A study of Homo sapiens with 6 samples.

Results

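The 10 genes described here are the matrix metalloproteinases MMP1, MMP3, MMP10, MMP2 and MMP14, the tissue inhibitors of metalloproteinases TIMP1, TIMP2 and TIMP3, and the urokinase pair PLAU and PLAUR, out of 23026 genes in the normalized table. They were taken by symbol, and the set was chosen by its differences between the shDYRK1A and shControl libraries in these same 6 libraries, so its own values in that comparison are given as a description and carry no test. RNA-seq was made from T98G cells, an established human glioblastoma line, to ask how the transcriptome changes when the protein kinase DYRK1A is depleted. The shControl group held 3 libraries from cells infected with a lentivirus carrying a control hairpin, and the shDYRK1A group held 3 libraries from cells infected with a lentivirus carrying a single hairpin against DYRK1A. Both groups went through puromycin selection, and fly Kc167 cells were added to each sample ahead of RNA extraction as a per-cell reference, so that counts could be scaled to the fly RNA. Nothing in the labels says whether the 3 libraries of a group came from separate cultures, so p-values measure only the spread between these libraries.

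Matrix metalloproteinases are zinc-dependent endopeptidases that cleave collagens, proteoglycans and other matrix proteins, and most are made as inactive proenzymes. MMP1 is the interstitial collagenase, MMP3 and MMP10 are stromelysins that also activate other proenzymes, MMP2 is a gelatinase, and MMP14 is a membrane-anchored enzyme that activates pro-MMP2 on the cell surface together with TIMP2. TIMPs block the active site of the enzymes, while the urokinase encoded by PLAU, held on cells by the receptor encoded by PLAUR, converts plasminogen to plasmin, which in turn can open proenzymes.

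The coding stretch for the zinc site that makes these enzymes a family is shown to place the 5 proteases against each other. Each line holds 33 bases of the principal GENCODE v29 transcript, 5′ to 3′ on the gene's strand, with the codons of the 3 zinc-binding histidines in capitals.
MMP1: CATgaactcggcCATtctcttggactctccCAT
MMP3: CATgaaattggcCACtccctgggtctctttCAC
MMP10: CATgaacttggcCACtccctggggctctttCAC
MMP2: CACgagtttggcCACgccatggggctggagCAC
MMP14: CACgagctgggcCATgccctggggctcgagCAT

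On GRCh38 these stretches lie at chr11:102795549-102795581 in exon 5 of MMP1, chr11:102840535-102840567 in exon 5 of MMP3, chr11:102776718-102776750 in exon 5 of MMP10, chr16:55491827-55491859 in exon 8 of MMP2 and chr14:22843283-22843315 in exon 5 of MMP14. The first 3 are read from the minus strand and the last 2 from the plus strand. MMP3 and MMP10 shared 31 of the 33 bases, the closest pair, and MMP1 shared 24 with MMP3 and 25 with MMP10. Over the whole coding sequence MMP3 and MMP10 were identical at 85.2% of aligned bases, against 66.7% for MMP1 and MMP3 and 61.1% for MMP2 and MMP14. That closeness could matter for counting, though the study's reads were longer than 50 bases. Of the 50-base words in MMP3 transcripts, 2.95% also occur in another gene, MMP10, and 3.36% of those in MMP10 occur in MMP3. No 50-base word of MMP1, MMP14, TIMP1, TIMP3, PLAU or PLAUR was found, read in the same sense, in another gene's transcripts, while 2.60% of those of MMP2 and 3.74% of those of TIMP2 were, in the overlapping genes AC007336.3 and CEP295NL.

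Gene counts per library ran from 33708297 to 42154438, and the factors by which the fly-scaled table divided the counts ran from 0.821 to 1.21. DYRK1A, the targeted gene, had spike-in normalized counts of 2227, 2234 and 1895 in the shControl libraries and 1482, 1056 and 1285 in the shDYRK1A libraries. Its log2 fold change was -0.73 (SE 0.15, adjusted p = 5.33e-06, edgeR's quasi-likelihood test), and it was -0.34, short of the study's fold threshold of 0.7, under TMM scaling, which rescales each library on its human genes instead of the fly RNA. On the spike-in scale it was also short of that threshold without shControl 1A (-0.696), without shControl 1B (-0.69) and without shDYRK1A 1B (-0.61). The median log2 fold change over the 9697 genes tested was -0.40 on the spike-in scale and 0.00 under TMM scaling, so a gene near -0.40 on the spike-in scale kept its place among the human genes. In bulk RNA, fewer recovered cells and less RNA per cell cannot be told apart. The labelled cell type was checked against markers: the mesenchymal genes VIM and CD44 were abundant, the neural genes NES and OLIG2 were low, and SOX2, GFAP and S100B were at or near 0. VIM was itself called lower in shDYRK1A, at -0.72 (SE 0.13, adjusted p = 1.47e-07), and NES and OLIG2, both under the filter, had log2 fold changes of -0.71 and -0.91. None of the 8 markers of leukocytes, macrophages, endothelium, epithelium or neurons passed the expression filter.

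Of the 10 genes, 9 passed the filter of a mean above 10 CPM (spike-in normalized counts over the 6 libraries, divided by the mean library total). MMP10 was the exception, at 2.31 CPM. On the study's call of an adjusted p under 0.05 with a log2 fold change beyond 0.7 in either direction, 2 of the 9 were called higher and 0 lower, where 0.278% of all tested genes were called higher and 14.3% lower. Under TMM scaling the counts were again 2 higher and 0 lower, beside 1.25% and 1.93% of all genes. The libraries of both groups stayed apart in 6 of the 9, 2 on the higher side and 4 on the lower side, beside 1.59% and 63.6% of all tested genes. As these same values chose the genes, nothing is read from the counts. The median log2 fold change of the 9 was -0.19 on the spike-in scale and 0.21 under TMM scaling.

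**Figure D1:**
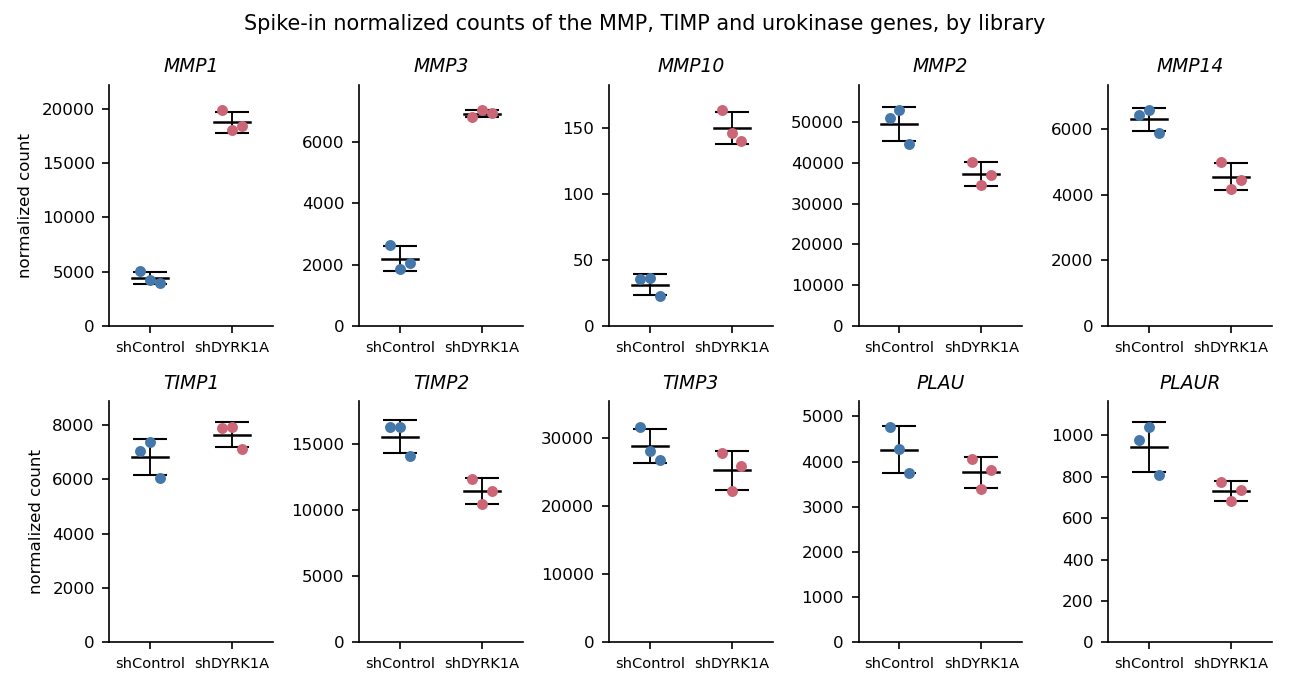
Spike-in normalized counts (y axis, linear, a scale of its own in each panel and starting at 0) of the 10 genes in the 3 shControl (blue) and 3 shDYRK1A (red) libraries; each point is a library, the thick line is the group mean and the bars are 1 SD. MMP1, MMP3 and MMP10 stand clear of their control libraries on the higher side, MMP2, MMP14, TIMP2 and PLAUR lie below theirs, and TIMP1, TIMP3 and PLAU overlap.

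MMP1, the interstitial collagenase (ENSG00000196611, chr11:102789920-102798160, minus strand), had normalized counts of 5022, 4257 and 3995 in the shControl libraries and 19839, 18019 and 18405 in the shDYRK1A libraries. Every shDYRK1A library was therefore above every control, with a wide gap between them. The means were 4424 ± 534 and 18754 ± 959 (SD, n = 3 each), a log2 fold change of 2.08 (SE 0.14), and leaving out any library kept it between 2.02 and 2.18. It was the highest fold change of the 9697 genes tested, and it was 2.49 under TMM scaling. As a share of all gene counts, MMP1 took 0.0104%, 0.00890% and 0.00996% of the shControl libraries, and 0.0541%, 0.0577% and 0.0553% of the shDYRK1A libraries. The 95% Wilson interval of the lowest shDYRK1A share, 0.0534% to 0.0549%, and that of the highest shControl share, 0.0101% to 0.0108%, cover counting error only.

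MMP3, stromelysin 1 (ENSG00000149968, chr11:102835801-102843803, minus strand), had normalized counts of 2656, 1872 and 2048 in the shControl libraries and 6810, 7036 and 6936 in the shDYRK1A libraries. The shDYRK1A libraries lay close together, with a coefficient of variation of 1.63%, while the controls spread over 18.8%. The log2 fold change was 1.66 (SE 0.14), the fourth in rank from the highest among the tested genes, 1.56 to 1.82 when any library was left out and 2.07 under TMM scaling.

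MMP10, stromelysin 2 (ENSG00000166670, chr11:102770503-102780628, minus strand), was a scarce transcript with raw counts of 29, 32 and 23 in the shControl libraries and 173, 158 and 170 in the shDYRK1A libraries. The same libraries gave normalized counts of 35.3, 36.3 and 22.4 against 164, 146 and 140, so the groups did not overlap. The log2 fold change was 2.27 (SE 0.26) in a fit with edgeR's own, wider filter, which keeps low genes. Per kilobase of exon MMP3 stood 62.5 ± 17.2 times above MMP10 in the shControl libraries and 39.8 ± 3.60 times in the shDYRK1A libraries. MMP3 and MMP10 share some 50-base words, which are shorter than the study's reads. Whether this moved any reads to or from the scarce member was not tested.

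The bases just before the MMP10 start are shown because that window holds the letters of a TATA box, a core promoter element. They are the 60 bases upstream of the RefSeq start on GRCh38.p14, chr11:102780629-102780688, minus strand, with TATAAA in capitals at base -31.
MMP10: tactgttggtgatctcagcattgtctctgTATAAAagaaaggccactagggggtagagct

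RefSeq promoter windows, from 250 bases before to 50 bases after a start, were matched for 6 of the 10 genes (MMP10, MMP14, TIMP1, TIMP3, PLAU and PLAUR) in 7 windows, and not for MMP1, MMP3, MMP2 and TIMP2. TATAAA on the gene's strand was found in 1 of the 7, in MMP10, and in 7.33% of all 35116 windows. TGAGTCA, the site of the AP-1 factors, searched on both strands, was found in 1 of the 7, in PLAUR from base -186, and in 4.95% of all windows. CTCGCGAG, the core of the palindrome associated with DYRK1A on chromatin, which reads the same on both strands, was in 0 of the 7 and in 1.02% of all windows. These matches are descriptions of letters in the windows.

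MMP2, the gelatinase (ENSG00000087245, chr16:55389700-55506691, plus strand), was the most abundant of the 10 in raw level, with normalized counts of 51048, 52887 and 44755 in the shControl libraries and 40199, 34523 and 37082 in the shDYRK1A libraries. All 3 shDYRK1A values were below all 3 controls. The log2 fold change of -0.41 (SE 0.13) sat beside the median of all genes, and it was -0.01 under TMM scaling. MMP14, the membrane-anchored activator of pro-MMP2 (ENSG00000157227, chr14:22836557-22849027, plus strand), had values of 6430, 6582 and 5897 against 5002, 4191 and 4454. It too was lower in every shDYRK1A library than in any control, with a log2 fold change of -0.47 (SE 0.14) on the spike-in scale and -0.07 under TMM scaling. Per kilobase the MMP14 to MMP2 ratio was 0.141 ± 0.00427 in shControl and 0.135 ± 0.00245 in shDYRK1A, so these transcripts kept nearly the same proportion. The groups were only just apart, with a lowest shControl ratio of 0.13752 and a highest shDYRK1A ratio of 0.13751.

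Among the inhibitors, TIMP1 (ENSG00000102265, chrX:47582313-47586789, plus strand, within the SYN1 gene) had normalized counts of 7026, 7352 and 6057 in the shControl libraries and 7880, 7919 and 7103 in the shDYRK1A libraries. The lowest shDYRK1A library lay below the highest control, so the groups overlapped. Its log2 fold change was 0.16 (SE 0.13) on the spike-in scale and 0.58 under TMM scaling, positive under both, and it ranked 230 from the highest of all tested genes. TIMP2 (ENSG00000035862, chr17:78852977-78925387, minus strand), the inhibitor that also takes part in pro-MMP2 activation, had values of 16297, 16325 and 14118 against 12390, 10457 and 11497. Here every shDYRK1A library was lower, with a log2 fold change of -0.44 (SE 0.13) and -0.04 under TMM scaling. TIMP3 (ENSG00000100234, chr22:32801701-32863043, plus strand, within SYN3), which binds the matrix itself, had values of 31659, 28053 and 26784 against 27749, 22170 and 25860. Its groups overlapped, and its log2 fold change changed sign with the scaling, from -0.19 (SE 0.13) on the spike-in scale to 0.21 under TMM scaling.

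PLAU, the urokinase plasminogen activator (ENSG00000122861, chr10:73909177-73917497, plus strand), had normalized counts of 4766, 4281 and 3738 in the shControl libraries and 4063, 3397 and 3819 in the shDYRK1A libraries. Its groups overlapped and its log2 fold change was -0.18 (SE 0.14), or 0.22 under TMM scaling. Of its exon bases, 31.1% lie opposite C10orf55. The library kit keeps the strand, but the strand setting of the counting is not given in the sources used here, so part of the PLAU signal could not be assigned with certainty. The same holds for the 7.6% of MMP1 exon bases and 1.6% of MMP3 exon bases that lie opposite WTAPP1, which had 0 to 5 raw counts in any library, and for the 6.5% of TIMP2 exon bases opposite AC022966.1. PLAUR, the receptor that holds urokinase on the cell surface (ENSG00000011422, chr19:43646095-43670547, minus strand), had values of 976, 1041 and 807 against 775, 682 and 738. The groups did not overlap on the spike-in scale, with a log2 fold change of -0.36 (SE 0.16), but the sign turned to 0.04 under TMM scaling. The PLAU to PLAUR ratio per kilobase was 6.86 ± 0.591 in shControl and 7.76 ± 0.205 in shDYRK1A.

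**Figure D2:**
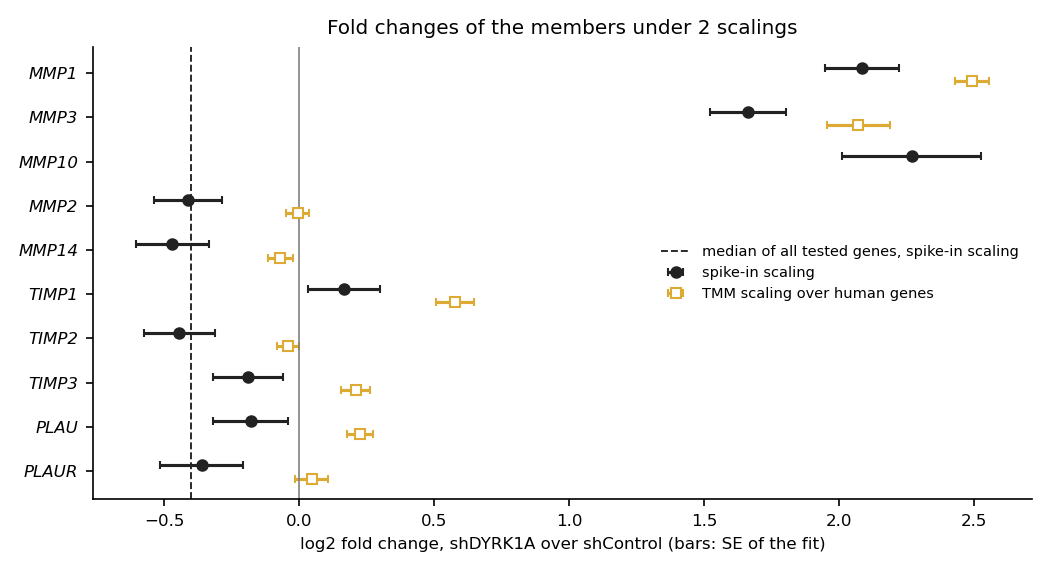
Log2 fold change of shDYRK1A over shControl (x axis) for each of the 10 genes, with bars of 1 SE from the edgeR fit over 6 libraries; filled circles use the spike-in scaling, open squares TMM scaling over the human genes, and the dashed line is the median of all tested genes on the spike-in scale (-0.40). MMP10 has a spike-in value only; MMP1, MMP3 and MMP10 lie right of 1.5 and MMP2, MMP14, TIMP2 and PLAUR lie near the dashed line, while TIMP3, PLAU and PLAUR cross 0 between the scalings.

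Compared per kilobase of exon, the order of the 10 transcripts differed between the groups. In shControl, MMP2 led at 10047 ± 864 normalized counts per kilobase, followed by TIMP3 at 6264 ± 550, TIMP1 at 4420 ± 437, TIMP2 at 2766 ± 225 and MMP1 at 2246 ± 271. TIMP2 and MMP1 overlapped between libraries, and so did the next pair, PLAU at 1445 ± 174 and MMP14 at 1412 ± 80.5. MMP3 at 1071 ± 201, PLAUR at 211 ± 27.1 and MMP10 at 17.8 ± 4.42 closed the order. In shDYRK1A, MMP1 led at 9520 ± 487, above MMP2 at 7555 ± 576 with no overlap between libraries. TIMP3 at 5488 ± 616 and TIMP1 at 4954 ± 299 overlapped, and MMP3 at 3383 ± 55.2 now stood above TIMP2 at 2032 ± 172. PLAU, MMP14, PLAUR and MMP10 followed in that order, each apart from the next.

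Summed per kilobase, the 5 metalloproteinases gave 15655, 15291 and 13434 in the shControl libraries and 22758, 20603 and 21324 in the shDYRK1A libraries. The 3 inhibitors gave 14330, 13764 and 12256 against 13342, 11812 and 12268. The protease sum was thus higher in every shDYRK1A library, while the inhibitor sums overlapped. Both sums hold only the chosen genes, and leave out MMP13, MMP15 and TIMP4, which also passed the filter. Per kilobase, MMP13 had means of 757 in shControl and 1084 in shDYRK1A, and MMP15 had 88.6 and 94.6. TIMP4 had 879 and 467. Within a library the ratio of the sums does not depend on the scaling, and it was 1.09, 1.11 and 1.10 in shControl against 1.71, 1.74 and 1.74 in shDYRK1A. MMP1, MMP3 and MMP10 together supplied 24.7%, 20.2% and 22.6% of the protease sum in shControl and 59.3%, 61.5% and 60.1% in shDYRK1A. The share of MMP2 went the other way, from 67.9% ± 2.03 to 35.0% ± 0.943. Within the inhibitor sum TIMP1 supplied 32.8% ± 1.58 in shControl and 39.8% ± 3.23 in shDYRK1A, TIMP2 20.6% ± 0.445 and 16.3% ± 0.493, and TIMP3 46.6% ± 2.01 and 43.9% ± 2.74.

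**Figure D3:**
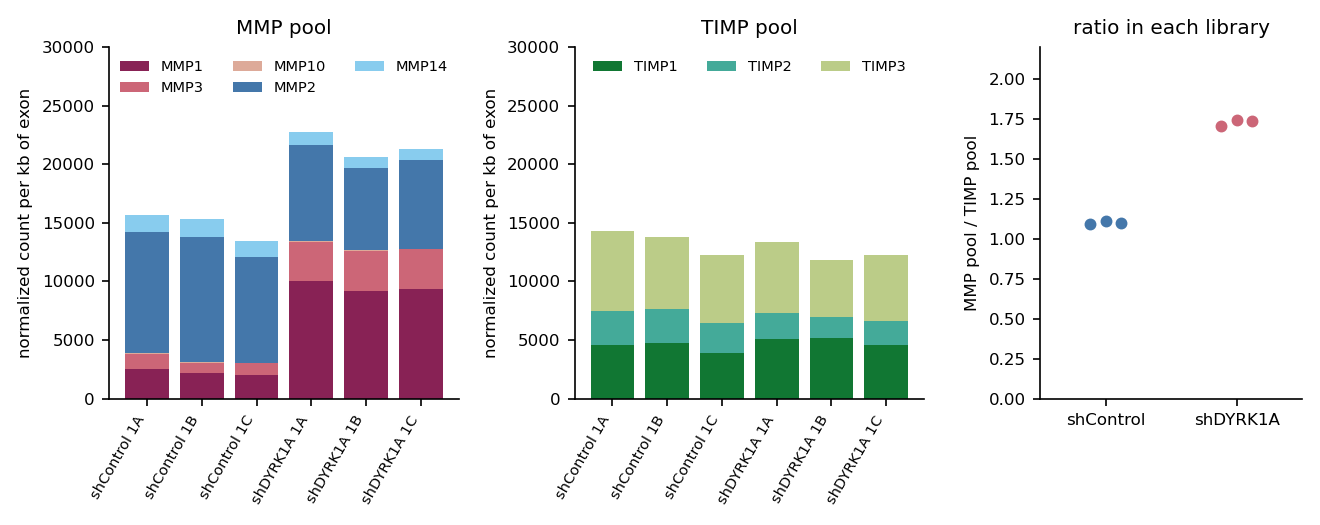
Normalized counts per kilobase of exon (y axes of the first 2 panels, linear from 0) stacked by gene for the 5 metalloproteinases and the 3 inhibitors in each library, and the ratio of the 2 sums in each library (right panel). The protease stacks of shDYRK1A reach 20603 to 22758, the inhibitor stacks of both groups lie between 11812 and 14330, and the ratio goes from about 1.10 to about 1.73.

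Ratios of single pairs of these same chosen genes are a description and add no separate support to the ratio of the sums. The MMP1 to TIMP1 ratio per kilobase was 0.559, 0.453 and 0.516 in shControl and 1.97, 1.78 and 2.03 in shDYRK1A, a difference of 1.92 in mean log2 ratio. MMP1 to MMP2 went from 0.224 ± 0.0224 to 1.26 ± 0.0392. MMP2 to TIMP2 was 3.63 ± 0.0622 in shControl and 3.72 ± 0.0451 in shDYRK1A, so the transcripts of these partners of pro-MMP2 activation stayed close in proportion. MMP1 to MMP3 was 2.12 ± 0.214 and 2.82 ± 0.190.

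MMP1, MMP3 and MMP10 lie side by side on chromosome 11 at 11q22, in a run of 9 metalloproteinase genes over 435.2 kb, from MMP7 (first base 102520508) to MMP13 (last base 102955734). The others of the run were not in the chosen set, and MMP12 and MMP7 are named for their place in it. MMP13, collagenase 3, had normalized counts of 2350, 2262 and 1825 in shControl and 3172, 2874 and 3173 in shDYRK1A, with no overlap. Its log2 fold change of 0.52 (SE 0.14) passed the adjusted p (0.000839, edgeR's quasi-likelihood test) but not the fold threshold, and it was 0.93 under TMM scaling. MMP12, the macrophage elastase, was under the filter at 46.3, 32.9 and 29.2 against 92.6, 62.1 and 67.5, a log2 fold change of 1.04 (SE 0.28) under the wider filter. MMP7, matrilysin, held 19.3 to 22.4 normalized counts in shControl and 18.5 to 19.8 in shDYRK1A, with a log2 fold change of -0.13 (SE 0.40). MMP8, MMP20 and MMP27 had 0 to 6 raw counts in any library, too few to compare.

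Around the run, 8 genes that were not chosen passed the filter among those starting within 1000 kb of it, MMP13 included. On the study's call 2 of the 8 were lower and 0 higher, beside the 14.3% and 0.278% of all genes. The 2 flank the run: TMEM123, a cell surface protein gene 50.1 kb away on the MMP7 side, fell by 1.21 on the log2 scale (SE 0.13, adjusted p = 3.45e-17), and DCUN1D5, a cullin neddylation factor gene 136.5 kb away on the MMP13 side, fell by 1.23 (SE 0.14, adjusted p = 6.36e-16). TMEM123 had normalized counts of 16045, 16663 and 13459 in shControl and 7501, 5722 and 6776 in shDYRK1A. Both were also called lower under TMM scaling, at -0.81 and -0.82. By adjusted p alone, 6 of the 8 were lower and 1, MMP13, was higher, beside 63.4% and 1.08% of all tested genes. Named after their values were seen, the inhibitor of apoptosis genes BIRC2 and BIRC3 had log2 fold changes of -0.64 (SE 0.14) and -0.19 (SE 0.14), the latter turning to 0.22 under TMM scaling, and YAP1, the Hippo pathway coactivator, had -0.48 (SE 0.14).

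**Figure D4:**
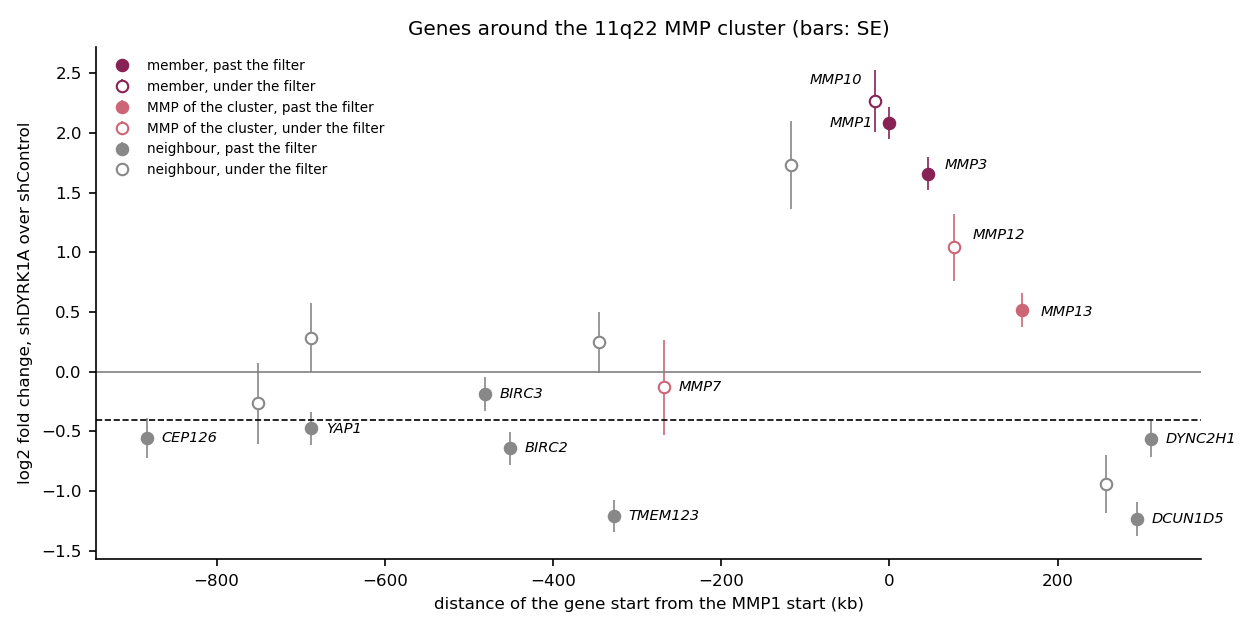
Log2 fold change of shDYRK1A over shControl (y axis, bars 1 SE) against the distance of each gene's start from the MMP1 start in kb (x axis); dark red marks the chosen genes, light red the other metalloproteinases of the run and grey the neighbours, filled points passed the filter, open points come from the wider filter, and the dashed line is the median of all tested genes. MMP10, MMP1 and MMP3 form a peak at 2.27, 2.08 and 1.66, with MMP12 at 1.04 and MMP13 at 0.52 beyond them, the unlabelled grey point inside the run is the scarce transcript RP11-817J15.3 at 1.73, and TMEM123 (-1.21) and DCUN1D5 (-1.23) lie on either side.

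The rest of the extracellular protease system was followed through 77 further genes in 6 lists. These were other metalloproteinases, ADAM family genes, ADAMTS proteases, other inhibitors, the plasminogen system, and proenzyme activators with other matrix proteases. Of the 77, 30 passed the filter, with a median log2 fold change of -0.21 against -0.40 for all genes tested. On the study's call 2 of the 30 were lower and 1 was higher, and under TMM scaling 0 were lower and 5 higher. The shares of all tested genes were 14.3% and 0.278% on the spike-in scale and 1.93% and 1.25% under TMM scaling. By adjusted p alone on the spike-in scale, 12 of the 30 were lower and 5 higher, beside 63.4% and 1.08% of all tested genes.

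Among the other inhibitors, 5 of 8 genes passed the filter and the 2 calls on the lower side were here. TIMP4, the remaining TIMP, had normalized counts of 1552, 1506 and 1295 in shControl and 750.5, 727 and 832 in shDYRK1A, and fell by 0.91 on the log2 scale (SE 0.15, adjusted p = 4.65e-08). RECK, a membrane-anchored inhibitor of several metalloproteinases, fell by 0.77 (SE 0.16, adjusted p = 8.79e-06). Neither reached the fold threshold under TMM scaling, at -0.50 and -0.36. In the same list TFPI2, a Kunitz-type inhibitor of plasmin and other serine proteases, stood at 0.47 (SE 0.14, adjusted p = 0.00164) and A2M, the broad protease trap, at 0.42 (SE 0.16, adjusted p = 0.0161), both past the adjusted p but short of the fold threshold, and both called higher under TMM scaling.

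Of the ADAMTS proteases 6 of 19 passed. ADAMTS5, an aggrecanase, was the 1 listed gene called higher, with 548, 628 and 457 normalized counts in shControl and 924, 830 and 954 in shDYRK1A, a log2 fold change of 0.73 (SE 0.16, adjusted p = 2.40e-05). The fold fell short of the threshold without shControl 1C, at 0.62, and without shDYRK1A 1C, at 0.69. ADAMTS9 followed at 0.69 (SE 0.16, adjusted p = 0.000106), just short of the fold threshold. It passed that threshold under TMM scaling, at 1.10, and on leaving out shControl 1A (0.79), shControl 1B (0.71) or shDYRK1A 1B (0.81). In the same list ADAMTS2, the procollagen N-proteinase, and ADAMTS12 lay at -0.41 and -0.35. Of the ADAM family genes, 7 of 12 passed and 0 were called. The lowest were ADAM9 at -0.63 and ADAM12 at -0.53, and the highest were ADAM19 at -0.08 and ADAM22 at 0.20. MMP15, a membrane-anchored relative of MMP14, was the only other metalloproteinase past the filter beside MMP13, at 0.10 (SE 0.17, adjusted p = 0.610).

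In the plasminogen system 4 of 9 genes passed and 0 were called. S100A10 and ANXA2, which together bind plasminogen at the cell surface, were at -0.63 and -0.54, and the clearance receptor gene LRP1 was at -0.46. These 3 passed the adjusted p on the lower side, as did 63.4% of all tested genes. The plasminogen receptor gene PLGRKT, at -0.22, did not. Of the activators and other matrix proteases 6 of 11 passed and 0 were called. They ran from CTSB and CTSL, the lysosomal cathepsins, at -0.29 and -0.26 to CTSS at 0.13 and FURIN, the proprotein convertase that activates MMP14, at 0.15.

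Of the 77, 30 were measured only under edgeR's wider filter. Of these, 7 were called lower and 3 higher, beside 14.3% and 1.24% of the 17623 genes in that fit. Those shares also take in the genes past the main filter, of which 0.278% were called higher in the main fit. A share for the genes under the main filter alone was not computed. The following were named after their values were seen. FAP, a serine protease of activated fibroblasts, fell by 1.47 (SE 0.18, adjusted p = 1.10e-13). SERPINI1, neuroserpin, an inhibitor of tissue plasminogen activator, rose 2.84-fold (adjusted p = 1.92e-11), from 110, 86.2 and 84.7 normalized counts to 290, 236 and 268. ADAM28 rose by 1.15 and ADAMTS16 fell by 1.28. The remaining 17 genes were under both filters.

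**Figure D5:**
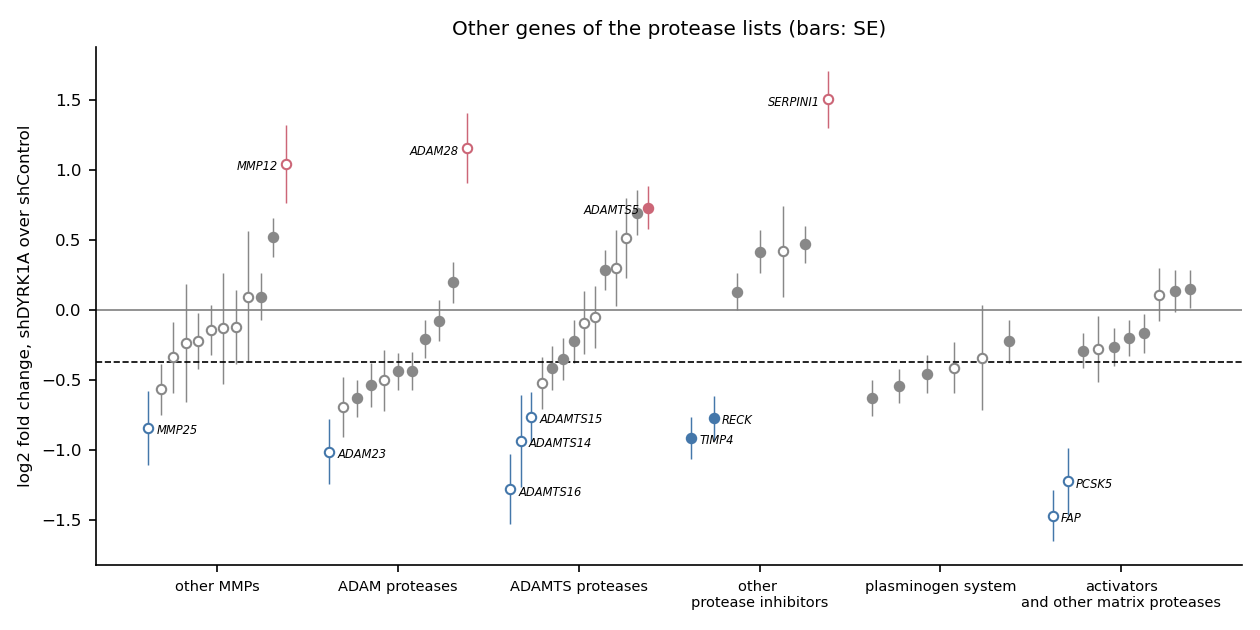
Log2 fold change of shDYRK1A over shControl (y axis, bars 1 SE) for the 60 further protease and inhibitor genes measured under the wider filter, grouped by list and ordered within it; blue points were called lower, red points higher, open points were under the main filter and the dashed line is the median of that fit (-0.37). FAP is the lowest of the called genes at -1.47 and SERPINI1 the highest, with ADAM28 below it at 1.15.

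The tested genes whose 6-library profile lay nearest to that of MMP1, by the root mean square difference of log2 normalized counts centred on the shControl mean, were ANKFN1 (0.202), the fibrinogen gamma chain gene FGG (0.300), MMP3 (0.309), the collagen gene COL8A1 (0.545) and the complement gene C3 (0.617). Centring on the shControl mean makes this distance follow mainly the fold change, and MMP1 had the highest fold change of all tested genes. In that order the genes had log2 fold changes of 1.89, 1.71, 1.66, 1.34 and 1.23, so the list is a description only. FGG had a mean of 833 ± 46.1 in shControl and 2729 ± 168 in shDYRK1A, and C3 had 1991 ± 192 and 4666 ± 424. Nearest to TIMP1 were the keratin gene KRT8 (0.0292), SERTAD1 (0.0313) and PHPT1 (0.0319).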

How the data were processed

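Gene counts from RNA-seq of 6 T98G libraries, 3 per group, were used. Per the submitters' processing notes, the authors used STAR, DESeq2 and the hg38 and dm3 genomes. They deposited raw counts per gene for each library, and a table of counts divided by fly spike-in size factors (a normalized signal), from which the factors were recovered. The columns of the authors' own comparison, fold changes and p-values, were not used. In that table, 4 rows broken by line ends were joined, and 96.25% of its genes had the coordinates of GENCODE v29 on GRCh38, which gave positions, exon lengths and coding sequences.

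The raw counts were tested with edgeR 4.0.16 (quasi-likelihood, R 4.3.3) with the spike-in factors as offsets, over the 9697 genes with a mean spike-in normalized CPM above 10 and with Benjamini-Hochberg adjustment. The study's thresholds defined a call: adjusted p under 0.05, with a log2 fold change beyond 0.7 in size. Levels between genes were compared per kilobase of merged exons. The depth, 33708297 to 42154438 gene counts, sets the precision of the scarce genes, and intervals cover counting error only.

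The members and the gene lists were chosen with earlier results of these data known. From the list of other inhibitors, 1 gene is not reported here and is left out of its counts. The named genes were the 10 members, DYRK1A, every other metalloproteinase past the filter, the 2 lowest and 2 highest of each other list, called genes near the cluster, and the nearest 5 profiles to MMP1 and 3 to TIMP1. Others are marked in the text. Results were recomputed with DESeq2 1.42.0, TMM or median-of-ratios factors, edgeR's filterByExpr, no filter beyond 1 count, adjusted p alone, the replicate letter as a block, and leaving out each library. The strand setting and the version of the counting are not given in the sources used here.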

Additional observations from a re-analysis of the deposited data

How the results depend on the processing

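Of the further protease genes, 2 were called lower and 1 higher. These counts became 0 and 5 under TMM scaling and 0 and 5 under median-of-ratios scaling. They were 9 and 4 with filterByExpr, 9 and 4 with no filter, and 12 and 5 with adjusted p alone. The shares of all genes in the fit were 14.3% and 0.278% in the main fit and 1.93% and 1.25% under TMM scaling. They were 14.3% and 1.24% with filterByExpr, and 63.4% and 1.08% with adjusted p alone. For the other settings these shares were not computed. The wider filters test more genes, and adjusted p alone drops the fold threshold. TMM scaling moved the median log2 fold change of all tested genes from -0.40 to 0.00. Leaving out 1 library gave 2 to 4 lower and 0 to 2 higher. Without shControl 1C the counts were 4 and 0, without shDYRK1A 1C the higher count was 0, and it was 2 in each of 3 other cases (shControl 1A or 1B, or shDYRK1A 1B, left out). Near the 11q22 run the count of 2, taken over both directions, became 5 with filterByExpr and 5 with no filter. With filterByExpr it took in MMP12 (1.04) and RP11-817J15.3 (1.73), both higher, and RP11-690D19.3 (-0.94), lower. The count was 3 under TMM scaling, where MMP13 was called higher at 0.93, and 3 under median-of-ratios scaling. It was also 3 without shControl 1C and 3 without shDYRK1A 1A.

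With the letter as a replicate block the counts were 2 lower and 1 higher, and 2 near the run, as without it. The letters were not taken as pairs in the main fit, as the labels do not say whether they mark pairs. The deviations of same-letter libraries correlated at 0.151, 0.073 and 0.128. Those of different letters correlated at -0.094 to -0.014. As the deviations are from each group's own mean, positive same-letter values push the others below 0, so these are not a separate observation.

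TMM and median-of-ratios scaling turned the sign of TIMP3, PLAU and PLAUR, and of ADAM19 (0.32 and 0.33), ADAMTS12 (0.049 and 0.052), PLGRKT (0.18 and 0.18), CTSB (0.12 and 0.12) and CTSL (0.14 and 0.15). Median-of-ratios scaling also turned ADAMTS2 to 0.0014. Leaving out 1 library gave -0.16 to 0.033 for ADAM19 and -0.0067 to 0.17 for MMP15, with the sign turned without shDYRK1A 1B and shDYRK1A 1A respectively. The difference in mean log2 MMP1 to TIMP1 ratio was 1.84 to 1.99 without any 1 library.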
